A study of Homo sapiens with 4 samples.

Results

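The library of MOLM-13 cells with a hairpin against Bcl-2 alone (sh-Bcl2) was compared with the library of cells with a control hairpin (shControl). MOLM-13 is an established human acute myeloid leukaemia line with a KMT2A fusion and an activating FLT3 mutation. Of 24940 listed genes, the 12792 with at least 1 CPM (counts scaled to library size) in either library were taken as measured. These are 2 of 4 libraries, with 1 library in each group: the others carried a hairpin against c-Myc (sh-c-Myc) or hairpins against both genes (sh-c-Myc_sh-Bcl2, the double knockdown). Every group, shControl included, was labelled as doxycycline-induced and came from cells infected with lentivirus and selected in puromycin (0.5 µg/ml) or G418 (600 µg/ml). A doxycycline time of 72 h is given for the Western blot of the knockdown. The labels do not say which agent selected which cells, and they name neither the hairpin sequence nor a further hairpin to the same target.

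BCL-2 is the founding member of a protein family that decides whether the outer mitochondrial membrane is breached in apoptosis. BCL-2 and its anti-apoptotic relatives MCL-1, BCL-XL, BCL-W and A1 hold the pore formers BAX and BAK in check, and BH3-only proteins such as BIM, PUMA and NOXA occupy the groove of the anti-apoptotic members. Acute myeloid leukaemia cells often depend on BCL-2, and venetoclax, which fills that groove, is used against the disease.

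The totals were 14825763 counts in shControl and 15691129 in sh-Bcl2, and the libraries with the c-Myc hairpin held 14421558 (alone) and 15494138 (with the Bcl-2 hairpin). With 1 library a group no difference between groups has a replicate check, and the 95% intervals in brackets cover counting error only. Levels are CPM after TMM scaling, a library factor computed from the bulk of genes. The words called higher and called lower stand for measured genes whose levels were 2-fold or more apart with an interval of the ratio that excluded 1. Genes that mark this line were present in both libraries: CD33 stood at 45.7 CPM in shControl and 42.3 in sh-Bcl2, FLT3 at 426 and 513, HOXA9 at 48.1 and 56.0, and the leukocyte gene PTPRC at 301 and 385. The cells were sequenced in bulk, so fewer cells of a kind and less RNA per cell cannot be told apart.

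The targeted transcript was lower in the library labelled for it. BCL2 (ENSG00000171791, chromosome 18, 63123346 to 63320128 on the minus strand of GRCh38) had 1687 counts in shControl and 586 in sh-Bcl2, which are levels of 119.7 CPM [114.1 to 125.6] and 38.7 CPM [35.6 to 42.0]. The ratio was 3.09-fold lower in sh-Bcl2 [2.81 to 3.40], or -1.63 on the log2 scale. The pair of libraries with the c-Myc hairpin, which shares no library with this one, showed the same order: BCL2 stood at 111.5 CPM in sh-c-Myc and 44.5 with both hairpins, 2.50-fold lower [2.29 to 2.74]. In an edgeR fit of all 4 libraries with 1 term per hairpin, BCL2 fell with the Bcl-2 hairpin (log2 change -1.48, adjusted p = 0.006). The transcript of the other target, MYC, which was not targeted in sh-Bcl2, lay at 434 CPM in shControl and 364 in sh-Bcl2 (log2 ratio -0.25 [-0.30 to -0.20]) and was not called.

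Most genes differed little between the 2 libraries. Of 12792 measured genes 289 were called higher in sh-Bcl2 (2.26%) and 269 lower (2.1%), and 11008 (86.1%) lay within 1.5-fold. Every count of called list members below is to be read beside these shares. A 1.5-fold rule gave 577 higher (4.51%) and 741 lower (5.79%). Most calls were of weakly expressed genes: at a mean under 5 CPM 15.9% of 2787 genes were called, between 5 and 20 CPM 3.29% of 2432, between 20 and 100 CPM 0.565% of 5135, and at 100 CPM or more 0.287% of 2438. Above 20 CPM this leaves 10 genes called higher and 26 called lower. Protein-coding genes gave 154 higher and 184 lower calls among 11082, and long non-coding genes 88 and 56 among 1099.

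**Figure D1:**
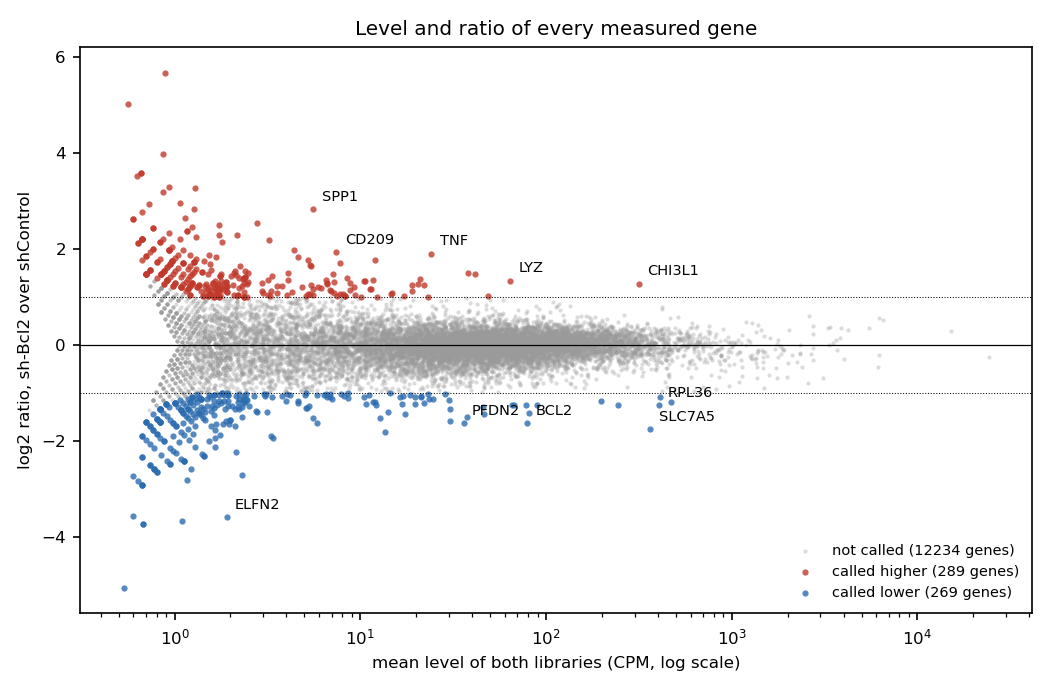
Log2 ratio of sh-Bcl2 over shControl (vertical axis) against the mean level of both libraries in CPM (horizontal log axis), 1 point per measured gene, with called genes in red (higher) or blue (lower) and dotted lines at 2-fold. The cloud narrows to the right, and among genes of 20 CPM or more 26 points lie in blue, with SLC7A5 and BCL2 among them, against 10 in red.

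Among the other anti-apoptotic genes, 1 was called higher and none lower (all measured genes, 2.26% and 2.1%). MCL1, an anti-apoptotic gene that myeloid cells also depend on, stood at 357 CPM in both libraries (log2 ratio -0.00 [-0.06 to 0.05]). Per transcript length, in the deposited FPKM, MCL1 stood at 77.7 in shControl and 78.7 in sh-Bcl2, and BCL2 at 9.67 and 3.17. BCL2A1, which encodes A1, was called higher, from 1.77 CPM to 4.89 (2.72-fold [1.73 to 4.53]), a level in sh-Bcl2 of 74 counts. Its levels with the c-Myc hairpin were alike, 5.90 CPM without the Bcl-2 hairpin and 5.95 with it. BCL2L1, which encodes BCL-XL, lay at 11.6 CPM in shControl and 8.46 in sh-Bcl2, but 43.0% of its exonic bases overlap another gene, and the sources used here do not state the strand setting of the counts. BCL2L2 lay at 22.1 and 19.1 CPM, and BCL2L10 had no count in either library.

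The pro-apoptotic arm lay lower more often than higher. Of its 12 measured members 9 had ratios below 0, and the median log2 ratio was -0.47 (all measured genes, -0.00). Of these members 1 was called lower and 0 higher, against 2.1% and 2.26% of all measured genes. The called gene was BBC3, which encodes the BH3-only protein PUMA, with 16.4 CPM in shControl and 7.13 in sh-Bcl2 (2.29-fold lower [1.82 to 2.91]). BAX lay at 89.2 and 61.0 CPM (log2 -0.55 [-0.67 to -0.42]) and BAK1 at 51.5 and 34.8 (-0.57 [-0.73 to -0.40]). Neither pore-former gene reached 2-fold. Among other BH3-only genes BIK lay at 55.9 and 34.8 CPM, PMAIP1 (NOXA) at 60.3 and 44.9, BID at 73.4 and 78.1, and BCL2L11 (BIM) at 46.9 and 53.9. BMF lay at 33.5 CPM in shControl and 44.0 in sh-Bcl2 (log2 0.39 [0.22 to 0.57]), the highest ratio in this arm. After removal of a trend on transcript GC content and length, described below, the median of the arm was -0.36, and BBC3 was no longer called (log2 -0.99). The c-Myc hairpin pair (1.66% of its genes called higher, 4.75% lower) gave this arm a median of -0.09 and no call, and BIK lay the other way there (34.1 CPM in sh-c-Myc, 50.3 with both hairpins). Caspases and apoptosome genes had no call among 18 measured and a median of -0.07.

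Several genes of the amino acid and integrated stress response were called lower, while those for charging tRNAs were not. This response begins with kinases that sense amino acid shortage, misfolded protein, viral RNA or lack of haem, and works through the transcription factor ATF4, which raises genes of amino acid uptake and synthesis. Of 17 measured regulators of the response 14 had ratios below 0 and 3 were called lower, none higher, with a median of -0.79. Of 13 amino acid transporters 2 were called lower and 0 higher (median -0.11), and of 17 genes of amino acid synthesis 2 and 0 (median -0.50). The 20 aminoacyl-tRNA synthetase genes of the cytosol, several of which ATF4 also raises, gave no call and a median of -0.08. Over all measured genes 2.1% were called lower. The stress lists were chosen with earlier results of these data known, so their direction is not independent evidence. Their median transcript GC contents, 56.7%, 52.7% and 52.3%, exceed the 48.0% of all measured genes, and after removal of the GC and length trend the medians were -0.57, -0.14 and -0.43, with 2 regulators called lower in place of 3. In the c-Myc hairpin pair the medians in the same order were -0.18, -0.18 and -0.25 (all genes, 0.03). There 3, 1 and 2 members were called lower and 0 higher, against 4.75% and 1.66% of all genes in that pair.

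Among genes with a mean of at least 20 CPM, SLC7A5 had the largest ratio on the lower side. It encodes LAT1, the transporter that brings leucine and other large neutral amino acids into the cell. SLC7A5 (ENSG00000103257, chromosome 16, 87830023 to 87869488 on the minus strand of GRCh38) had 7940 counts in shControl and 2525 in sh-Bcl2, levels of 564 and 167 CPM, and was 3.38-fold lower [3.23 to 3.53]. In the c-Myc hairpin pair it stood at 237 CPM in sh-c-Myc and 76.2 with both hairpins, 3.10-fold lower [2.91 to 3.32]. In the edgeR fit SLC7A5 fell with the Bcl-2 hairpin (log2 change -1.70, adjusted p = 0.0035). Both libraries with the Bcl-2 hairpin lay below the library they are paired with, and the double knockdown was lowest of the 4. SLC3A2, which encodes the heavy chain that carries LAT1 to the membrane, lay at 356 CPM in shControl and 193 in sh-Bcl2 (1.85-fold lower [1.76 to 1.93]), short of a call. The glycine transporter gene SLC6A9 was called lower from 38 counts to 9, and SLC36A1, a lysosomal amino acid transporter gene, lay 1.60-fold higher [1.45 to 1.77].

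Other members of the response followed in part. DDIT4, which encodes the mTORC1 inhibitor REDD1, stood at 118 CPM in shControl, 44.3 in sh-Bcl2, 76.1 with the c-Myc hairpin and 41.4 with both hairpins. It was called lower, 2.65-fold [2.42 to 2.91], and its Bcl-2 term in edgeR missed the threshold (log2 -1.14, adjusted p = 0.058), while it passed in 3 of the 6 other fits described below. Since 41.2% of its exonic bases overlap another gene, its count is uncertain. ATF4 itself lay at 581 CPM in shControl and 319 in sh-Bcl2, 1.82-fold lower [1.76 to 1.89], with 314 in sh-c-Myc and 250 with both hairpins. DDIT3, which encodes CHOP, was called lower from 102 counts to 44. ATF3, TRIB3 and SESN2 lay at log2 -0.81, -0.79 and -0.79, without a call. Of the kinases that start the response, EIF2AK3 (PERK) lay at 15.1 and 16.5 CPM and EIF2AK4 (GCN2) at 39.9 and 49.0. Neither of these 2 kinase genes lay below its level in shControl, and they are among the 3 of 17 measured regulators with ratios above 0. The genes of the other kinases that start the response are not given here.

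CHAC1 and ASNS, enzymes at the end of the pathway, gave low levels in both pairs of libraries. CHAC1, which degrades glutathione, stood at 14.3 CPM in shControl, 6.74 in sh-Bcl2, 15.1 with the c-Myc hairpin and 1.98 with both hairpins. Its ratio was 2.11-fold lower in sh-Bcl2 [1.66 to 2.71] and lay at -2.91 on the log2 scale [-3.52 to -2.38] between the libraries with the c-Myc hairpin. With the GC and length trend removed CHAC1 was not called in sh-Bcl2 over shControl (log2 -0.86). ASNS, asparagine synthetase, stood at 4.54, 1.72, 3.27 and 0.64 CPM in the same order, with 64 and 26 counts in shControl and sh-Bcl2. It was 2.62-fold lower in sh-Bcl2 [1.65 to 4.35], although 44.6% of its exonic bases overlap another gene. Both libraries with the Bcl-2 hairpin were below both others for each gene. The edgeR Bcl-2 term passed for neither (adjusted p = 0.23 for CHAC1 and 0.55 for ASNS).

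The promoters of these 2 genes are shown because, of the 7 stress response genes called lower, they are the ones whose window holds the ATF4 and CEBP composite element, searched as TGATGNAA on both strands. The windows are those of RefSeq on GRCh38.p14 and run from 250 bases before the start to 50 after it. CHAC1 is at chr15:40953221-40953520 on the plus strand and ASNS at chr7:97872359-97872658 on the minus strand, both written 5′ to 3′ along the gene, with the match in capitals.
CHAC1: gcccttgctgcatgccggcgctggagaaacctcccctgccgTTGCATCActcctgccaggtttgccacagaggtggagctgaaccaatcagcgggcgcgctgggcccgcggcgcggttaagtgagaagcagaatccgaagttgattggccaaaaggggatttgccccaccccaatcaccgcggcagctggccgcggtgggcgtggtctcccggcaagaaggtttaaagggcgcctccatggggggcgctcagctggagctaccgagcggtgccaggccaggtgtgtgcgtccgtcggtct
ASNS: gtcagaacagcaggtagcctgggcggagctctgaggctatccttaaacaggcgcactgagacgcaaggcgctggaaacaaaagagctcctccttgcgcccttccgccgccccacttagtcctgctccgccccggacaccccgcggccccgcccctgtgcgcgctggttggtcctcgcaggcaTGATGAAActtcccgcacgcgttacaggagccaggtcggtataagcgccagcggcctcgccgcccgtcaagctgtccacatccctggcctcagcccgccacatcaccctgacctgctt
The match in CHAC1 is TTGCATCA, the element on the opposite strand, 209 bases before the start, and that in ASNS is TGATGAAA, 68 bases before it. No match was found in these windows for SLC7A5, DDIT4, SLC6A9, DDIT3 and CTH. Of the 39 measured members of the 3 lists with a promoter window 8 held a match (20.5%), against 154 of 9228 measured genes (1.67%) and 1270 of all 35116 windows (3.62%). The lists hold genes of the response that works through ATF4, so their excess over all genes is no result of these libraries. Of 32 list members with a window that were not called 6 held one (18.8%), and of the 7 called lower 2 did (28.6%). The genes called lower are too few for this comparison to show a difference. Among all genes called lower 4 of 156 held it, and among those called higher 5 of 127.

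Enzymes of serine and proline synthesis lay lower without passing 2-fold. PHGDH, the first enzyme of serine synthesis, stood at 295 CPM in shControl and 191 in sh-Bcl2 (1.55-fold lower [1.48 to 1.62]). PSAT1, the next step, stood at 351 and 238 CPM (1.48-fold lower [1.42 to 1.54]), and SHMT2, which passes the serine carbon to folate in mitochondria, at 557 and 366 (1.52-fold lower [1.47 to 1.57]). PYCR1, a mitochondrial enzyme of proline synthesis, stood at 73.2 and 37.3 CPM (1.96-fold lower [1.77 to 2.18]). With the c-Myc hairpin present PYCR1 stood at 16.9 CPM in sh-c-Myc and 18.6 with both hairpins, with no difference beyond counting error. CTH, which makes cysteine from cystathionine, was called lower at 11.4 and 5.68 CPM. Among the aminoacyl-tRNA synthetase genes AARS had the lowest ratio that the rule names (515 and 371 CPM).

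The endoplasmic reticulum arm of the stress response lay differently. Of 22 measured genes of the unfolded protein response 1 was called lower and 0 higher, and the median was 0.02. The chaperone genes HSPA5 (BiP) and HSP90B1 lay at 372 and 460 CPM and at 799 and 1006 CPM, log2 ratios of 0.31 [0.25 to 0.36] and 0.33 [0.30 to 0.37]. The called gene was FKBP2, a prolyl isomerase of the endoplasmic reticulum, with 21.1 CPM in shControl and 6.01 in sh-Bcl2.

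**Figure D2:**
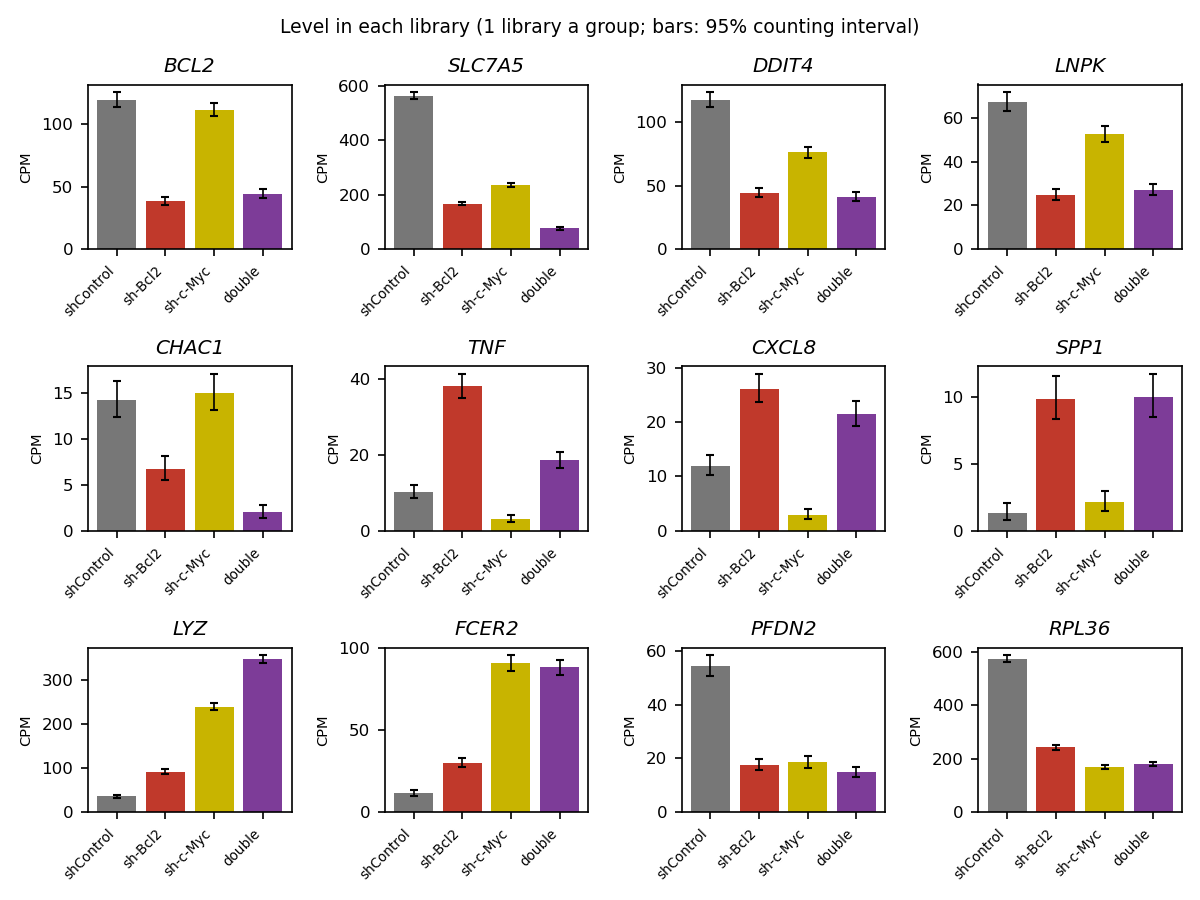
Level in CPM (vertical axes, from 0) of 12 genes in each of the 4 libraries, with error bars for the 95% counting interval. BCL2, SLC7A5, DDIT4 and LNPK are lower, and TNF, CXCL8 and SPP1 higher, in both libraries with the Bcl-2 hairpin than in the library each is paired with, whereas PFDN2 and RPL36 are high in shControl alone, and LYZ and FCER2 are highest in the libraries with the c-Myc hairpin.

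On the higher side were a few secreted inflammatory factors. TNF (ENSG00000232810, chromosome 6, 31575567 to 31578336 on the plus strand of GRCh38), the cytokine tumour necrosis factor, had 143 counts in shControl and 576 in sh-Bcl2. Its level was 10.1 CPM in shControl and 38.1 in sh-Bcl2, 3.74-fold higher [3.12 to 4.53], and 3.08 CPM in sh-c-Myc and 18.5 with both hairpins, 5.95-fold higher [4.41 to 8.33]. SPP1 (osteopontin, a phosphoprotein secreted by macrophages and bone cells) had 19 counts in shControl and 149 in sh-Bcl2, and levels of 1.35, 9.84, 2.12 and 10.0 CPM in shControl, sh-Bcl2, sh-c-Myc and with both hairpins. Both genes rose with the Bcl-2 hairpin in the edgeR fit (log2 change 2.21, adjusted p = 0.006 for TNF; 2.53, adjusted p = 0.038 for SPP1).

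CXCL8, the neutrophil chemokine interleukin-8, stood at 11.9 CPM in shControl, 26.2 in sh-Bcl2, 2.95 with the c-Myc hairpin and 21.4 with both hairpins. It was called higher in both pairs, 2.19-fold [1.83 to 2.64] and 7.20-fold [5.33 to 10.1], and missed the edgeR threshold (adjusted p = 0.12). LTB, a membrane-bound member of the TNF family, was called higher at 4.97 and 10.5 CPM. The list of inflammatory cytokines and NF-kB genes held 18 measured members, with 4 called higher, 0 lower, a median of -0.00 and 9 ratios on either side of 0. Over all measured genes 2.26% were called higher. The NF-kB subunit genes NFKB1, at 99.4 and 101 CPM, and RELB, at 12.6 and 6.94 (log2 -0.86 [-1.23 to -0.51]), were not called, nor was TNFAIP2, a gene induced by TNF, at 83.5 and 75.4 CPM. Of 29 immediate early and ERK feedback genes only EGR3 was called (higher, 1.59 CPM in sh-Bcl2 and 0.35 in shControl), and of 26 interferon response genes only RSAD2 (higher, 3.19 and 7.66 CPM).

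Monocyte and macrophage markers formed the list with the highest median. Of 26 listed markers 17 were measured, all 17 ratios lay above 0, 6 were called higher and 0 lower, and the median was 0.77 (0.63 with the GC and length trend removed). Over all measured genes 2.26% were called higher, and at a mean under 5 CPM 15.9% were called in either direction. Like the stress lists, this list was chosen with earlier results of these data known, so its direction is not independent evidence. The summed level of the markers was 595 CPM in shControl and 820 in sh-Bcl2. CD209, the dendritic cell lectin DC-SIGN, stood at 3.05 CPM in shControl and 11.8 in sh-Bcl2 (3.84-fold higher [2.76 to 5.54]). FCER2, the low-affinity IgE receptor CD23, stood at 11.6 and 30.1 CPM (2.58-fold higher [2.16 to 3.11]), and S100A8, a calcium-binding protein of myeloid cytosol, at 4.68 and 12.4 (2.62-fold higher [1.98 to 3.55]). LYZ, which encodes lysozyme, stood at 36.1 and 91.8 CPM (2.54-fold higher [2.29 to 2.82]), with 34.0% of its exonic bases overlapping another gene. The remaining called markers were MPEG1 (6.10 and 12.6 CPM) and FGL2 (1.28 and 3.37 CPM).

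Some markers of mature monocytes and macrophages were at or near 0 in both libraries. CD14 stood at 0.78 CPM in shControl and 0.79 in sh-Bcl2, and VCAN, CD68 and MRC1 had no count in either library. With no strand setting stated, a gene without a count need not lack a transcript, and this was not tested. CSF1R, the macrophage growth factor receptor, lay at 18.9 and 35.7 CPM (1.88-fold higher [1.62 to 2.19]) and was called only with the trend removed (log2 1.03). The c-Myc hairpin pair gave this list 1 call in each direction and a median of -0.03. The levels there were higher in both libraries: LYZ at 240 CPM in sh-c-Myc and 347 with both hairpins, FCER2 at 90.8 and 88.3, and CD209 at 30.9 and 42.0.

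Granule genes, made by promyelocytes and early monocytes, went in both directions. CTSG, the granule protease cathepsin G, stood at 344 CPM in shControl and 144 in sh-Bcl2 and was called lower (2.38-fold [2.26 to 2.50]). AZU1, which encodes azurocidin, lay lower at 1387 and 812 CPM (1.71-fold [1.67 to 1.75]), whereas RNASE2 lay higher at 315 and 529 CPM (1.68-fold [1.62 to 1.74]). MPO lay at 131 and 164 CPM. The list of 10 measured genes had 1 lower call (all measured genes, 2.1%) and a median of 0.01. Of 17 myeloid transcription factor genes only GATA2 was called (lower, 2.27 and 0.86 CPM): SPI1 (PU.1) lay at 173 and 139 CPM, RUNX1 at 296 and 407 and IRF8 at 749 and 743. None of 18 targets of KMT2A fusions was called (median 0.14), with MEIS1 at 38.2 and 29.2 CPM.

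Transcripts of the mitochondrial genome lay higher as a group by less than 2-fold. Of the 13 mRNAs 12 were measured, 10 of them lay above 0, 0 were called, and the median was 0.35 (0.40 with the trend removed). MT-ND4, a complex I subunit, stood at 5351 CPM in shControl and 7639 in sh-Bcl2 (1.43-fold higher [1.41 to 1.44]), and MT-ND4L, which shares a transcript with it, at 305 and 532 (1.74-fold higher [1.68 to 1.81]). MT-CO1, a core subunit of cytochrome oxidase, lay at 13697 and 16775 CPM and MT-CYB of complex III at 2942 and 3845. The exceptions were MT-CO3 (6681 and 5772 CPM) and MT-ND3 (855 and 779 CPM), which lay below 0. In all, genes of this chromosome held 4.53% of counts in shControl and 5.60% in sh-Bcl2, and 5.80% and 5.73% in the libraries with the c-Myc hairpin, alone and with the Bcl-2 hairpin, so shControl was the low library. In the c-Myc hairpin pair the median was 0.16.

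Nuclear genes of the respiratory chain had medians slightly below 0. Of 36 complex I genes 0 were called, 24 lay below 0, and the median was -0.15 (-0.05 with the trend removed). Of 37 genes of complexes II to V 0 were called and the median was -0.07. The lowest of the complex I genes that the rule names was NDUFA1, an accessory subunit, at 36.3 and 20.1 CPM, and the core subunit gene NDUFS1 lay at 228 and 241. Mitochondrial import and protease genes had 2 lower calls among 30 (all measured genes, 2.1%) and a median of -0.22 (-0.16 with the trend removed). The calls were TIMM17B of the inner membrane translocase at 23.6 and 10.0 CPM, and TIMM10, a small chaperone of the intermembrane space, at 28.7 and 13.5. With the trend removed TIMM10 lay at log2 -0.94 and only TIMM17B was called. The TIMM17B level lay low in the double knockdown as well (10.8 CPM, 18.1 in sh-c-Myc), and that of TIMM10 did not (10.7 and 8.15 CPM). Of 16 genes of mitochondrial dynamics and cristae only MINOS1 was called, higher at 1.56 and 3.17 CPM, and not with the trend removed, while DNM1L, the fission dynamin, lay at 97.4 and 112 CPM and MFN2, a fusion gene, at 243 and 239.

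A further set of lower calls had a different pattern over the libraries, with shControl alone high. PFDN2, a subunit of the prefoldin chaperone, stood at 54.4 CPM in shControl, 17.6 in sh-Bcl2, 18.5 with the c-Myc hairpin and 14.8 with both hairpins. PFDN6, another subunit, 34.9% of whose exonic bases overlap another gene, stood at 55.5, 19.5, 13.8 and 14.1 CPM, and NUDT1, which removes oxidised nucleotides, at 45.9, 15.3, 11.7 and 13.6. Of 25 measured chaperone and prefoldin genes the prefoldin pair gave the only calls (median -0.03). For PFDN2, PFDN6 and NUDT1 the ratios within the c-Myc hairpin pair were -0.33, 0.03 and 0.21 on the log2 scale. FKBP2 (21.1, 6.01, 7.70 and 6.97 CPM) and the immunoproteasome gene PSMB10 (20.4, 7.80, 8.40 and 8.44 CPM) had the same pattern. The transcripts of PFDN2 (677 bases), NUDT1 (872 bases) and FKBP2 (1002 bases) are shorter than the median of 3456 bases over measured genes. The part of transcript length in these calls was not tested beyond the removal of the trend, after which all 5 were still called, at log2 ratios from -1.56 to -1.17.

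Cytosolic ribosomal protein genes mostly lay lower in sh-Bcl2 than in shControl, by less than 2-fold. Of 79 measured genes 68 lay below 0, and 3 were called lower and 0 higher, against 2.1% and 2.26% of all measured genes. The median was -0.27 (-0.22 with the trend removed, when RPS25, at log2 -0.97, was no longer called). RPL36 stood at 574 CPM in shControl, 242 in sh-Bcl2, 168 with the c-Myc hairpin and 180 with both hairpins, RPL37 at 655, 288, 306 and 266, and RPS25 at 558, 265, 205 and 240. RPL3, one of the most abundant, lay at 3836 and 2386 CPM (1.61-fold lower), whereas RPL4 lay at 3338 and 3321. In the c-Myc hairpin pair the median was 0.19. Together these genes held 9.03% of counts in shControl and 7.16%, 5.80% and 6.18% in sh-Bcl2, sh-c-Myc and the double knockdown, so that sh-Bcl2 lay between shControl and the libraries with the c-Myc hairpin. Many of these genes have processed pseudogenes of near-identical sequence, so their counts are uncertain.

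**Figure D3:**
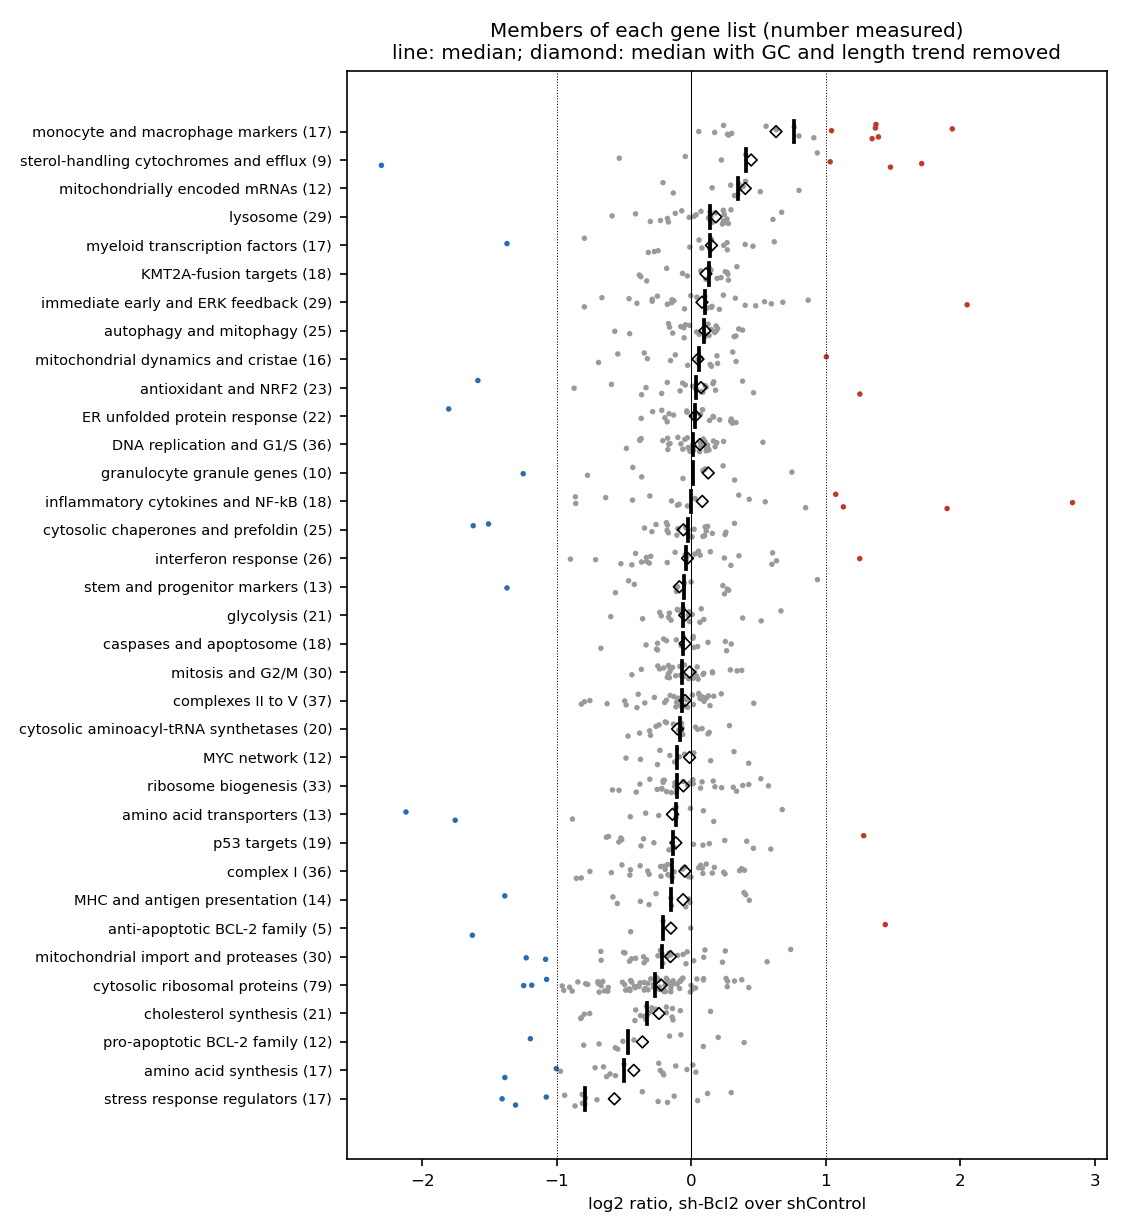
Log2 ratio of sh-Bcl2 over shControl (horizontal axis) for each measured member of 35 gene lists, with the number measured in parentheses. Red and blue points are called higher and lower, the black line is the median and the diamond the median with the GC and length trend removed. Medians run from -0.79 for the stress response regulators to 0.77 for the monocyte and macrophage markers.

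Genes of growth and division differed little. Of 36 genes of DNA replication and G1/S and 30 of mitosis and G2/M 0 were called, with medians of 0.01 and -0.07: MCM4 of the replicative helicase lay at 882 and 952 CPM, TOP2A at 633 and 645 and MKI67 at 769 and 858. The same lists had 7 and 9 members called higher in the double knockdown over sh-c-Myc (1.66% of all genes there), with medians of 0.82 and 0.89. Whether the response to the Bcl-2 hairpin differs between these pairs was not tested. None of 33 ribosome biogenesis genes, 12 MYC network genes, 21 glycolysis genes, 29 lysosome genes or 25 autophagy and mitophagy genes was called, and their medians lay between -0.11 and 0.14. Of 19 p53 targets only TIGAR was called (higher, 1.06 and 2.64 CPM), and CDKN1A (p21) lay at 438 and 390 CPM. Of 14 genes of MHC and antigen presentation PSMB10 was the only call, and of 13 stem and progenitor genes GATA2.

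Cholesterol synthesis lay lower as a list with no call. Of 21 genes 20 had ratios below 0 and the median was -0.33 (-0.24 with the trend removed, -0.03 in the c-Myc hairpin pair). MVD of the mevalonate pathway lay at 92.2 and 52.3 CPM, LSS, which closes the sterol ring, at 144 and 83.1, and SREBF2, which encodes the master regulator, at 399 and 351. A list of 9 measured sterol-handling genes had 3 calls higher and 1 lower (2.26% and 2.1% over all measured genes). CYP19A1, the aromatase that makes oestrogens, stood at 3.62 CPM in shControl, 11.96 in sh-Bcl2, 8.21 with the c-Myc hairpin and 12.9 with both hairpins. CYP46A1, the cholesterol 24-hydroxylase, stood at 3.76, 10.6, 19.9 and 20.5 CPM, and CYP1B1, not called with the trend removed (log2 0.98), at 11.2, 23.0, 26.0 and 25.01. CYP27A1, the sterol 27-hydroxylase, was called lower with 34 counts in shControl and 7 in sh-Bcl2. HMOX1, haem oxygenase, was called higher among 23 antioxidant genes, at 11.1 and 26.6 CPM, and NUDT1 was the lower call of that list.

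Some of the largest single ratios belong to none of these groups. CHI3L1, the secreted chitinase-like protein YKL-40, stood at 184 CPM in shControl, 447 in sh-Bcl2, 679 with the c-Myc hairpin and 378 with both hairpins. It was 2.42-fold higher in sh-Bcl2 [2.32 to 2.54] and 1.79-fold lower in the double knockdown over sh-c-Myc [1.74 to 1.85]. Its neighbour MYBPH, 3117 bases away on chromosome 1, stood at 21.8, 60.8, 104 and 83.6 CPM. NAV3, a microtubule-associated protein gene, stood at 19.9, 56.3, 40.1 and 53.1 CPM, and NCEH1, a cholesterol ester hydrolase gene, at 11.9, 28.9, 32.2 and 37.8. MLPH, a melanosome transport gene, stood at 6.53, 16.8, 16.7 and 12.4 CPM. On the lower side MEX3A, an RNA-binding protein gene, stood at 18.9, 6.54, 2.95 and 4.41 CPM and EGFL7, a secreted factor gene, at 25.6, 9.38, 16.7 and 13.5.

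TRAC, the constant segment of the T cell receptor alpha chain, stood at 5.39 CPM in shControl, 18.6 in sh-Bcl2, 5.00 with the c-Myc hairpin and 4.99 with both hairpins, so that sh-Bcl2 was the high library. Other T cell markers were near 0: CD247 had no count in shControl and 0.13 CPM in sh-Bcl2, and CD28 had none in either, while CD4, which monocytes also carry, lay at 154 and 125 CPM. Of the 3 measured B cell markers PAX5 (18 and 6 counts) and BLNK (15 and 5 counts) were called lower. Both lay under 5 CPM, where 15.9% of all measured genes were called in either direction. The 3 measured NK cell genes gave no call, nor did the 1 erythroid and 2 megakaryocyte genes that were measured.

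Among non-coding genes SLC9A3-AS1 was the most abundant of those that the rule names, with 110 CPM in shControl, 46.5 in sh-Bcl2, 155 with the c-Myc hairpin and 91.5 with both hairpins. AP005131.6 (1.14 and 5.35 CPM) and AC011893.1 (2.63 and 8.26 CPM) were called higher, and AC138649.4 (7.52 and 3.10 CPM) and the processed pseudogene AC115223.1 (30.8 and 15.3 CPM) lower, though with the GC and length trend removed neither of the lower ones was (log2 -0.98 and -0.93). Of the exonic bases of SLC9A3-AS1 19.3% overlap another gene, and with no strand setting stated reads in those bases cannot be assigned to either gene.

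The pair with the c-Myc hairpin served as the other measurement of the Bcl-2 hairpin, since the double knockdown over sh-c-Myc shares no library with sh-Bcl2 over shControl. Lower calls recurred there above the share of all genes, and a larger share of them kept their sign than over all genes. Higher calls also recurred above the share of all genes, but 17 recurred while 32 were called lower. At a mean of at least 5 CPM 4 recurred and 1 was called lower, so these opposite calls were mostly of weakly expressed genes. Fewer higher calls kept their sign than over all genes. The share of all genes is not matched for level, and most calls were of weakly expressed genes. The difference between the directions was not tested. Of 210 genes called lower and measured in both pairs 37 were also called lower there, which is 17.6% of these and 10.7% of the 347 called lower there, against 2.77% of all 12508 genes measured in both; 5 were called higher. Of 259 genes called higher 17 were also called higher there, 6.56% of these and 8.99% of the 189 called there, against 1.51% of all genes, and 32 were called lower. By sign, 165 of the 210 lower calls (78.6%) lay below 0 in the c-Myc hairpin pair, against 44.7% of all genes, whereas 104 of the 259 higher calls (40.2%) lay above 0 there, against 55.3% of all genes. Among genes with a mean of at least 20 CPM 18 of 26 lower calls (69.2%; all genes 33.4%) and 6 of 10 higher calls (60.0%; all genes 66.6%) kept their sign. At that level 2 lower calls and 1 higher call recurred, and 0 were called the other way. At a mean of at least 5 CPM 3 of 61 lower calls and 4 of 55 higher calls recurred, with 1 opposite call in each direction. After the GC and length trend was taken out of both pairs, the shares were 71.8% of 149 lower calls (all genes 42.5%) and 41.3% of 288 higher calls (all genes 57.5%). With the 1.5-fold rule 140 of 678 lower calls (20.6%) and 45 of 546 higher calls (8.24%) recurred, against 7.36% and 6.18% of all genes measured in both pairs. Over all genes measured in the c-Myc hairpin pair that rule called 9.21% lower and 6.05% higher.

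**Figure D4:**
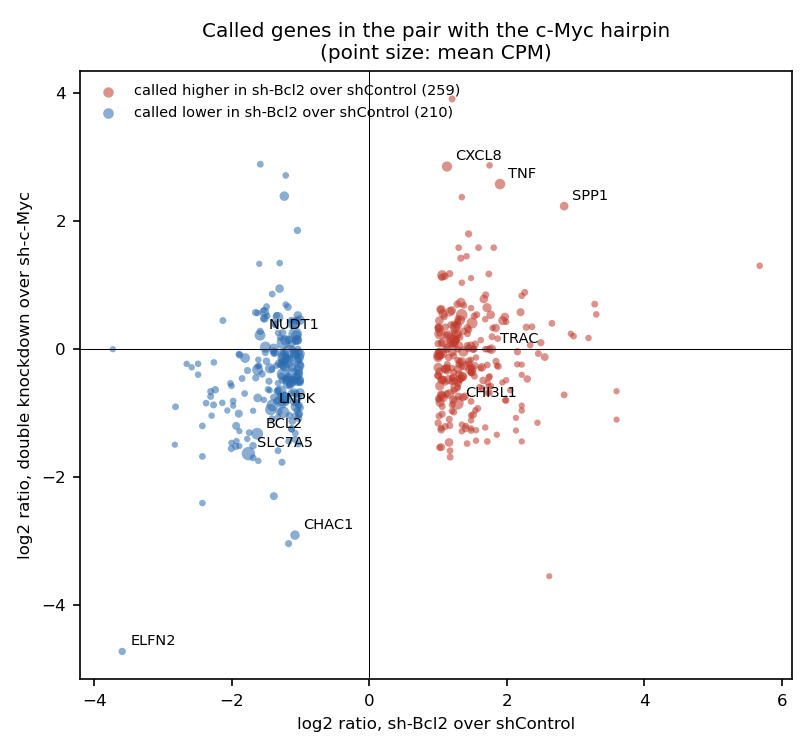
Log2 ratio of the double knockdown over sh-c-Myc (vertical axis) against that of sh-Bcl2 over shControl (horizontal axis) for the 259 genes called higher (red) and the 210 called lower (blue), with point size by mean level in CPM. The blue points lie mostly below the horizontal line (165 of 210), with SLC7A5, BCL2, CHAC1 and ELFN2 far below it, and the red points lie on both sides (104 of 259 above), with TNF, CXCL8 and SPP1 high.

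Of the 37 lower and 17 higher calls shared by both pairs, the 8 in each direction with the largest fold that the intervals of both pairs allowed are named. On the lower side they were BCL2, SLC7A5, CHAC1, ASNS, ELFN2, ZNF844, CEACAM19 and MC1R. ELFN2, which encodes a postsynaptic adhesion protein in neurons, had 50 counts in shControl and 4 in sh-Bcl2, and levels of 3.55, 0.26, 2.50 and 0.06 CPM over the 4 libraries. The zinc finger gene ZNF844 stood at 5.39, 1.39, 9.75 and 4.22 CPM. LNPK, which encodes the endoplasmic reticulum junction protein lunapark, was just short of 2-fold in the c-Myc hairpin pair, at 67.3, 24.9, 52.5 and 27.2 CPM. ADAM9, a membrane metalloprotease gene chosen after its values were seen, had 94.8, 39.9, 100 and 50.6 CPM. On the higher side the genes were TNF, SPP1, CXCL8, KCTD12, CLEC5A, OLR1, PTX3 and the long non-coding gene AC017074.1. KCTD12 stood at 9.51, 19.9, 12.4 and 27.7 CPM, and was just short of a call in sh-Bcl2 over shControl with the trend removed. OLR1, the oxidised LDL receptor, and CLEC5A, a myeloid lectin, were at most 3.20 CPM in any library.

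The edgeR fit over all 4 libraries called 4 of 12855 genes for the Bcl-2 hairpin at an adjusted p under 0.05: TNF and SPP1 rose (0.0156% of genes) and BCL2 and SLC7A5 fell (0.0156%). The adjusted p-values were 0.0035 for SLC7A5 and 0.006 for BCL2 and TNF. The fit has 1 residual degree of freedom, in which the spread between libraries and any unequal effect of the hairpin in the 2 backgrounds stand together. Each gene's spread was drawn toward that of all genes, with 10.9 prior degrees of freedom. The adjusted p-values therefore rest largely on spread shared over genes, not on that of the gene itself. SPP1 missed the threshold in 3 of the 6 other fits, with DESeq2 size factors (adjusted p = 0.064), with the GC and length trend removed (0.14) and in limma-voom (0.062), whereas BCL2, SLC7A5 and TNF passed in all 6. ADAM9 lay next at an adjusted p of 0.052, then LNPK, ELFN2 and DDIT4 at 0.058 each. All 4 of these genes passed in 3 of the other fits, with total counts, with no filter on low counts and in DESeq2, and ADAM9 also with the GC and length trend removed (adjusted p = 0.043). Every fit used the same 4 libraries, so a pass in several fits is not independent evidence. The fits with total counts and with no filter also called many more genes, as given in the closing section.

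Ratios also followed transcript composition. Among the 10735 genes that averaged 50 counts or more, GC-rich transcripts had lower log2 ratios (Spearman rho -0.35 over genes, which are not independent replicates and share both libraries). The median was 0.10 in the 20% of genes with the lowest GC content and -0.18 in the 20% with the highest. The c-Myc hairpin pair had a rho of -0.31 with GC content. Longer transcripts had higher ratios in sh-Bcl2 over shControl (rho 0.19, medians of -0.10 in the shortest 20% and 0.08 in the longest 20%) and not in the c-Myc hairpin pair (rho -0.05). With the trend removed 326 genes were called higher and 201 lower, so the higher share of calls was 61.9% against 51.8% without removal. The part of GC content and length in the lists above is given by the medians with the trend removed, and its cause was not tested.

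**Figure D5:**
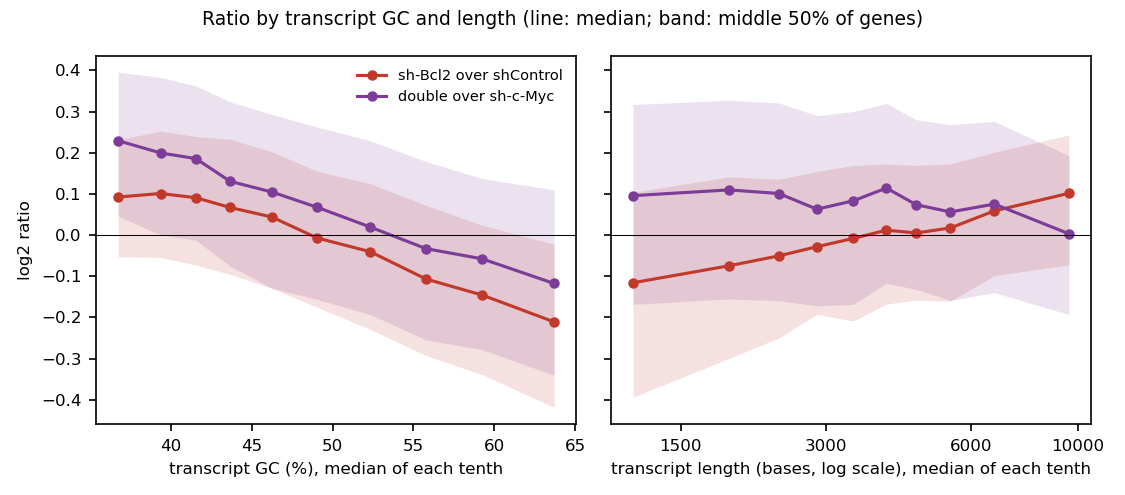
Median log2 ratio (points and lines) and the middle 50% of genes (bands) in groups of 10% of genes by transcript GC content in percent (left) and by transcript length in bases on a log axis (right), for sh-Bcl2 over shControl (red) and the double knockdown over sh-c-Myc (purple). Both lines fall with GC content, and the red line alone rises with length (rho 0.19 against -0.05).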

How the data were processed

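RNA-seq read counts and FPKM per gene were used for 4 libraries of MOLM-13 cells, 1 per group. Per the submitters' processing notes, reads were aligned to GRCh38 with HISAT2 and counted with HTSeq 0.13.5. The deposited count columns hold whole reads, and the deposited FPKM columns, per the file headers, were used for 1 alternative and for levels per length. The sources used here state neither the annotation release nor the strand setting; all 24940 identifiers are in GENCODE 29, which gave positions, GC content and lengths. Per the labels, 1.5 µg of RNA went into each library.

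Counts were scaled by TMM in edgeR 4.0.16 (R 4.3.3; factors 0.950 in shControl, 0.965 in sh-Bcl2, 1.08 with the c-Myc hairpin and 1.01 with both hairpins). With 1 library a group there is no test between 2 groups, so log2 ratios (prior count 0.5) carry exact conditional binomial intervals, and calls follow a rule of size: 2-fold, interval excluding 1, at least 1 CPM in either library. The floor of 3 counts is 0.213 CPM in shControl and 0.198 in sh-Bcl2. The 2 by 2 layout was fitted with edgeR's quasi-likelihood test, 1 term per hairpin, on the 12855 genes that reached 1 CPM in 2 or more libraries (Benjamini-Hochberg adjustment over these). On simulated data the fit recovered 64% of 2-fold and 97% of 4-fold changes, with 5 false calls. The simulation gave all genes 1 common spread, with equal effects in both backgrounds and no GC trend, so it does not cover those features of the data. DESeq2 1.42.0 and limma 3.58.1, other scalings, filters, priors and removal of a loess trend on GC content and length were alternatives.

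The comparison and its 40 gene lists were chosen with earlier results of these data known. Genes named are BCL2, MYC and the BCL-2 family; in each direction the 12 genes at 10 CPM or more whose interval stayed farthest from 1 (the conservative fold); from each list up to 5 members by conservative fold and 3 by level; the 13 mitochondrial mRNAs; the 8 in each direction that lead by it in both pairs; and 3 non-coding genes per direction. Members given in addition to show a list's other genes were chosen after their values were seen.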

Additional observations from a re-analysis of the deposited data

Results flagged for a closer look

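BLNK, which encodes a B cell receptor adaptor, had ratios on opposite sides of 0 in the 2 pairs: its log2 ratio was -1.60 in sh-Bcl2 over shControl and 1.33 in the double knockdown over sh-c-Myc. Its levels were 1.06 CPM in shControl, 0.33 in sh-Bcl2, 0.90 with the c-Myc hairpin and 2.30 with both hairpins, with 15 counts in shControl and 5 in sh-Bcl2. Of the 210 lower calls measured in both pairs 5 were called higher in the c-Myc hairpin pair, against 1.51% of all genes. At a mean under 5 CPM 15.9% of genes were called in sh-Bcl2 over shControl. The difference between the pairs was not tested.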

How the results depend on the processing

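No paired analysis was possible because each group has 1 library, and leaving a library out of the 2 by 2 layout leaves no residual degree of freedom. The calls of sh-Bcl2 over shControl (289 higher, 269 lower) became 40 and 51 with deposited FPKM + 1, 475 and 425 with no filter on low counts, 65 and 67 at a mean of at least 50 counts and 577 and 741 at 1.5-fold; protein-coding genes alone gave 154 and 184. The BCL2 log2 ratio was -1.35 with FPKM + 1. Calls shared with the c-Myc hairpin pair (17 higher, 37 lower) were 4 and 3 at a mean of at least 50 counts and 45 and 140 at 1.5-fold, and 17 and 30 with the trend removed in both pairs, which was chosen after seeing the data. The edgeR count of genes that rose with the Bcl-2 hairpin (2) was 1 with DESeq2 size factors, with the trend removed and in limma-voom, 48 with total counts and 22 with no filter. The count that fell (2) was 72 with total counts, 36 with no filter and 10 in DESeq2. Of 37 list medians 5 moved with the trend removed, 4 with the mean in place of the median, 2 with FPKM + 1, 2 with upper quartile factors, 1 with total counts and 0 with DESeq2 size factors or a prior count of 5. With the mean, the lists that moved were the amino acid transporters at -0.40 (median -0.11) and the chaperone and prefoldin genes at -0.14 (median -0.03). The mitochondrial mRNAs, at 0.30 (median 0.35), and the cytosolic ribosomal proteins, at -0.32 (median -0.27), moved too. Not counted as moved were the myeloid transcription factors at -0.01 (median 0.14), the granule genes at -0.14 (median 0.01) and the inflammatory cytokine list at 0.32 (median -0.00). Of genes under 5 CPM 15.9% were called, and of those at 100 CPM or more 0.287%.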
